A study of Mus musculus with 6 samples.

Results

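The 10 genes followed here belong to the AP-1 and immediate early response and were measured in bone marrow-derived macrophages (BMDMs): *Fos*, *Fosb*, *Fosl2*, *Jun*, *Junb*, *Jund*, *Atf3*, *Batf*, *Egr1* and *Ier3*. They were taken from the table by their symbols, and all 10 were found among the 55335 genes of the table. The macrophages came from mice of WT genotype and were grown for 7 days in M-CSF at 25 ng/ml, the growth factor that turns bone marrow cells into macrophages. They were then kept for 24 h together with neutrophils taken by magnetic sorting from the injured spinal cord at 3 days post-injury (dpi), and were sorted by flow cytometry before RNA extraction. The co-culture used neutrophils of *Cd177* WT mice in 3 libraries (WT) and neutrophils of *Cd177* KO mice in 3 libraries (KO). CD177 is a surface protein carried by a subset of neutrophils. The study used adult male C57BL/6 mice with a contusion injury of the thoracic cord. The knockout was in the mouse that gave the neutrophils and not in the macrophages, so the KO neutrophils also came from a lesion that formed in a knockout animal. Neither BMDMs cultured alone nor other times were analysed here, and nothing in the labels says that the 3 libraries of a group were separate cultures or animals, so the p-values measure the spread between these libraries, which may be technical.

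AP-1 is a transcription factor built from pairs of leucine zipper proteins. JUN proteins pair with each other or with FOS, ATF or BATF proteins, and which proteins pair sets how strongly and on which DNA sites the dimer acts. Immediate early genes are switched on within minutes of a stimulus by kinases and transcription factors already in the cell, mostly fade within hours, and in macrophages help to start the genes of the inflammatory response.

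The values are FPKM, fragments per kilobase of transcript and relative to the depth of the library, so levels of different genes can be set side by side. Low values imply 17700000 to 20100000 fragments in each library. Macrophage markers were high in all 6 libraries, with a summed level between 6628 and 7990 FPKM in WT and between 7230 and 7917 FPKM in KO. Most of this sum was *Lyz2*, at 4462 to 5732 FPKM in WT and 5881 to 6588 FPKM in KO. Of the 8, *Cd14* (mean 1010 in WT against 99.4 FPKM in KO) and *Fcgr1* (121 against 33.8 FPKM) were lower in KO. *Adgre1* (241 against 297 FPKM) and *Mertk* (19.3 against 31.9 FPKM) were higher. The markers of neutrophils summed to 189 to 250 FPKM in WT and 540 to 554 FPKM in KO, and 9 of the 10 tested were higher in KO and 1, *Mmp8*, lower. *Ly6g*, the marker used to sort neutrophils away, was listed at 0 in the WT libraries and between 0.403 and 0.660 FPKM in KO. *Col1a1* and the other stromal and endothelial markers summed to 299 to 449 FPKM in WT and 334 to 389 FPKM in KO. *Ighm* and *Cd79b*, of the B-lineage list, and *Cd4*, of the T-lineage list, were also higher in KO (summed lists at most 1.35 against at least 13.0 FPKM, and at most 2.12 against at least 5.07 FPKM), whereas *Cd3d* was listed at 0 throughout. Dendritic cell markers summed to at most 1.14 FPKM and spinal cord markers to at most 7.06 FPKM. *Cd177* itself ran against the labels: it was 0.544, 0.309 and 0.521 FPKM in WT and 1.79, 1.84 and 2.28 FPKM in KO (log2 fold change 1.37, limma adjusted p = 0.00083). The groups are therefore named below as the labels name them, and every direction given rests on those labels.

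The members split into those that were lower in KO, those that were higher and those that did not pass the test. *Ier3*, *Jun*, *Junb* and *Fosl2* fell, and *Egr1* and *Batf* rose. *Fos*, *Atf3* and *Jund* did not pass the test, and *Fosb* was too low to enter it. Of the 9 tested members, 4 were lower in KO, where 10.5% of all 13367 tested genes were, and 2 were higher, where 27.1% of all tested genes were. No library of one group overlapped the other group in any of the 10 members, 7 of them lower and 3 higher in KO; among all tested genes 14.4% were lower and 37.5% higher without overlap. The median log2 fold change of the 9 tested members was -0.17, against 0.19 for all tested genes. Fewer cells of a type and less RNA per cell cannot be told apart in such bulk libraries.

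**Figure D1:**
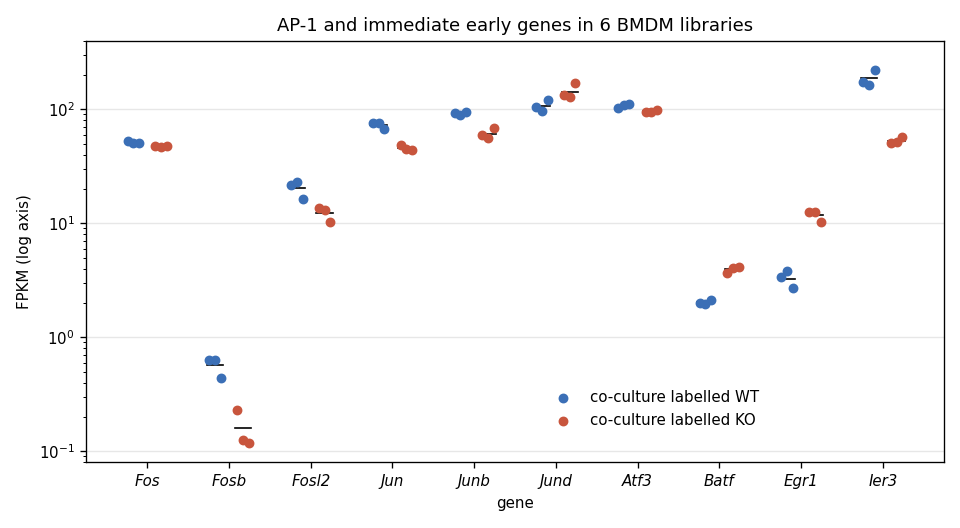
FPKM of each member on a log axis, with 1 point per library, WT libraries on the left and KO libraries on the right of each gene, in the order of replicates 1 to 3, and a line at the mean of the 3 libraries. *Egr1* (mean 3.27 against 11.8 FPKM), *Fosb* (0.567 against 0.159 FPKM) and *Ier3* (186 against 52.7 FPKM) stand furthest apart, while *Fos* (51.2 against 47.5 FPKM) is close to level.

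The levels covered a wide range. In WT, *Ier3* had the highest mean (186 ± 31.5 FPKM, SD, n = 3), followed by *Atf3* (108 ± 4.12 FPKM) and *Jund* (107 ± 12.2 FPKM), whose libraries overlapped each other, and then by *Junb*, *Jun*, *Fos*, *Fosl2*, *Egr1*, *Batf* and *Fosb*, each clear of the next in all 3 libraries. In KO, *Jund* came first (143 ± 22.5 FPKM), then *Atf3* (96.0 ± 2.41 FPKM), *Junb* (61.2 ± 6.34 FPKM) and *Ier3* (52.7 ± 3.50 FPKM). *Junb* and *Ier3*, *Fos* and *Jun*, and *Fosl2* and *Egr1* were neighbours in this order whose KO libraries overlapped. *Ier3* thus moved from the first to the fourth place, and *Jund* from the third to the first.

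The upstream sequences of 5 members are shown because the genes they belong to moved in different ways: *Jun*, *Junb* and *Ier3* fell, *Batf* rose and *Fos* stayed close to level. Each is the 150 bases that end just before the RefSeq start, or before the GENCODE start where that lies further upstream. They run 5′ to 3′ on the strand of the gene and come from the RefSeq promoter set on GRCm38.p6. For *Junb*, on the minus strand, the GENCODE start (84978718) lies downstream of the RefSeq start (84978748), before which the stretch ends. For *Batf* and *Ier3* the stretch ends before the GENCODE start, which lies 51 and 29 bases further upstream than that of RefSeq. Capitals mark TGACGT on either strand (the core of a cAMP response element), TGACATCA on either strand (a variant of the AP-1 and cAMP response sites) and TATAA on the strand of the gene (the core of a TATA box), which do not overlap here.
*Fos*, chr12:85473740-85473889, plus strand: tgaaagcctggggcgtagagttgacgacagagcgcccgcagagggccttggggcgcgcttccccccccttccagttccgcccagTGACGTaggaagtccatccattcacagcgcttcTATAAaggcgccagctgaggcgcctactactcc
*Jun*, chr4:95052223-95052372, minus strand: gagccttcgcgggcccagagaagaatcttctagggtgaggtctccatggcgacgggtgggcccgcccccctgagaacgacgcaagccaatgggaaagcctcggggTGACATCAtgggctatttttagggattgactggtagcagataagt
*Junb*, chr8:84978749-84978898, minus strand: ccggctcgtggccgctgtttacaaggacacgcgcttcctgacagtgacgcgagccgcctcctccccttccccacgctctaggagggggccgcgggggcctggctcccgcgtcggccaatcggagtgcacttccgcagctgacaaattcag
*Batf*, chr12:85686519-85686668, plus strand: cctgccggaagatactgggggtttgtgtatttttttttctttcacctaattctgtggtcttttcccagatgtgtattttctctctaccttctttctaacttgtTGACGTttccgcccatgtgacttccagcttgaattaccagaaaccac
*Ier3*, chr17:35821534-35821683, plus strand: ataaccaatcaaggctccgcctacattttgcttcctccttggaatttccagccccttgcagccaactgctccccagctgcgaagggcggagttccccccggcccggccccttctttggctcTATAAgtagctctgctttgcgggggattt
A window of 300 bases around the RefSeq start was held for 9 of the 10 members. For 3 of them the GENCODE start lies outside this window and was not scanned. These are *Atf3* (RefSeq 191183333, GENCODE 191218039), *Jund* (70697739 and 70698949) and *Fosl2* (32136472 and 32135801). None of the 9 held TGACTCA (the AP-1 site, read on both strands), TGACGTCA (the cAMP response element, which reads the same on both strands) or a CArG box (the site of the serum response factor), which 5.20%, 1.79% and 1.63% of all 32851 promoters of that length held. TGACGT, the 6-letter core contained in TGACGTCA, was in 3 of the 9 (*Fos*, *Atf3* and *Batf*) and in 7.51% of all promoters. TGACATCA was in *Jun* alone of the 9 and in 3.62% of all, and TATAA was in *Fos*, *Ier3* and *Junb* and in 17.5% of all. In *Junb*, TATAA begins at position 1, the RefSeq start itself, and so lies outside the stretch printed above. The last 3 letter strings were chosen after the sequences were seen, and the absence of a string says only that these letters are not in this window.

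Of the JUN genes, *Jun* and *Junb* fell and *Jund* did not pass the test. *Jun* encodes c-Jun, the JUN protein with the strongest activating domain, and lies in a single exon at chr4:95049034-95052222 (GRCm38, GENCODE M21). It was 76.3, 75.0 and 67.1 FPKM in the WT libraries and 49.0, 44.4 and 44.2 FPKM in the KO libraries. All KO values were thus well below the lowest WT value, and the mean was 1.59 times as high in WT as in KO. On the scale of log2(FPKM + 0.5), used for every log2 fold change below, the difference of KO minus WT was -0.66 ± 0.09 (SE; 95% interval -0.87 to -0.45, limma adjusted p = 0.0016).

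*Junb*, at chr8:84974484-84978718, encodes a JUN protein that can replace c-Jun in the dimer and often activates less. Its level was 92.6, 88.3 and 94.9 FPKM in WT and 59.5, 55.9 and 68.2 FPKM in KO. Here too the groups were apart, with a log2 fold change of -0.59 ± 0.10 (SE; 95% interval -0.82 to -0.36, limma adjusted p = 0.0037). The annotated *Junb* overlaps *Prdx2* on the other strand over 351 bases, and since the counting was not stated to use strand, reads there cannot be told apart; *Prdx2* was between 49.0 and 74.6 FPKM in WT and between 43.5 and 49.2 FPKM in KO.

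*Jund*, at chr8:70698949-70700616, is the JUN gene that most cells express steadily and that is often present in resting cells. Its values were 104, 97.1 and 121 FPKM in WT and 132, 128 and 169 FPKM in KO. Every KO library was above every WT library, but replicate 3 was the highest in both groups and the spread was wide. The log2 fold change of 0.41 ± 0.14 (SE; 95% interval 0.08 to 0.74, limma adjusted p = 0.055) did not pass the threshold. Its GC content of 67.1% was the highest of the members, and the value was 0.15 after a correction for GC content and length (limma adjusted p = 0.41), but 0.50 without WT replicate 3 (limma adjusted p = 0.026), 0.46 with quantile normalization (limma adjusted p = 0.013) and 0.43 after rescaling to TPM (limma adjusted p = 0.018).

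Set against each other within a library, the JUN genes kept the order *Jund*, *Junb*, *Jun*, but their shares shifted. *Jund* made up 38.0%, 37.3% and 42.7% of the summed FPKM of the JUN genes in WT and 54.9%, 56.1% and 60.0% in KO, a difference of 17.7 percentage points. *Junb* fell in share from 33.8% ± 0.22 to 24.5% ± 0.25 (SD, n = 3), with very little spread in either group. The share of *Jun* was 26.8% ± 2.73 in WT and 18.5% ± 2.46 in KO. These shares do not depend on the scaling between libraries. The groups did not overlap in any of the shares, for which the exact permutation test (two-sided) gave p = 0.1, the smallest that 3 libraries against 3 can give. The sum of the JUN genes overlapped between the groups, at 261 to 283 FPKM in WT and 228 to 281 FPKM in KO (exact permutation p = 0.3).

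**Figure D2:**
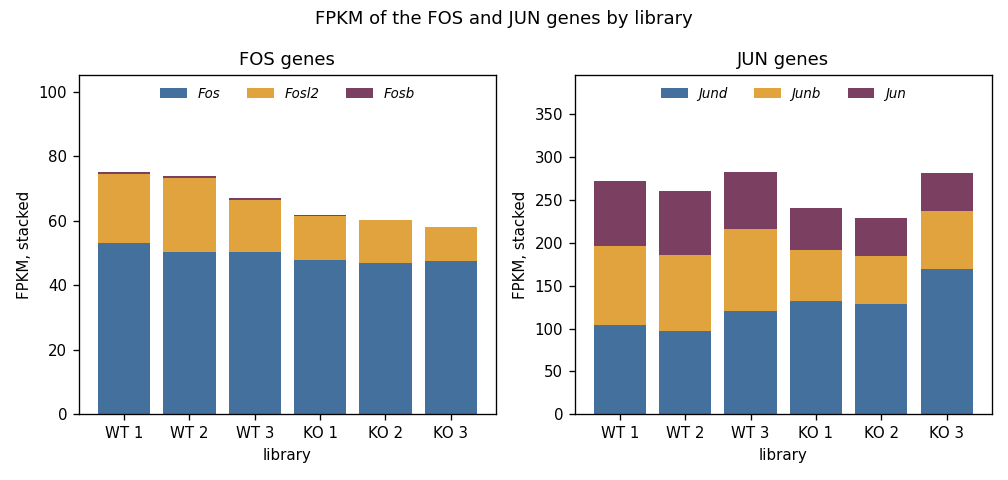
Stacked FPKM of the FOS genes (left) and of the JUN genes (right) in each of the 6 libraries. *Jund* fills between 37.3% and 42.7% of the JUN bars in WT and between 54.9% and 60.0% in KO, and *Fosl2* fills between 24.3% and 31.1% of the FOS bars in WT and between 17.7% and 21.9% in KO.

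Among the FOS genes, the most abundant member was the one that moved least. *Fos*, at chr12:85473890-85477273, encodes c-Fos, which binds DNA only when paired with a JUN protein. It was 53.1, 50.2 and 50.3 FPKM in WT and 48.0, 47.0 and 47.7 FPKM in KO. The groups did not overlap, yet the gap was small, with a log2 fold change of -0.11 ± 0.07 (SE; 95% interval -0.27 to 0.06, limma adjusted p = 0.28). It was -0.32 (limma adjusted p = 0.015) with a scaling that put the median of all genes at 0, and -0.22 (limma adjusted p = 0.026) with the correction for GC content and length.

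*Fosl2*, at chr5:32135801-32157842, encodes Fra-2, a FOS protein without the strong activating domain of c-Fos. Its level was 21.4, 23.0 and 16.2 FPKM in WT and 13.5, 13.1 and 10.3 FPKM in KO. Replicate 3 was the lowest in both groups, and WT replicate 3 lay nearest to the KO libraries. The log2 fold change was -0.69 ± 0.16 (SE; 95% interval -1.08 to -0.30, limma adjusted p = 0.016). The call was lost without WT replicate 1 (limma adjusted p = 0.057) and without WT replicate 2 (limma adjusted p = 0.053).

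*Fosb*, at chr7:19302696-19310051, encodes the FOS protein whose shortened form is known for its long life in neurons. It was 0.631, 0.627 and 0.442 FPKM in WT and 0.232, 0.126 and 0.118 FPKM in KO, which at the implied depth is roughly 30 to 46 fragments per WT library and 8 to 15 per KO library. All WT values were above all KO values, and the mean was 3.58 times as high in WT. Its mean over the 6 libraries was under the minimum of 0.5 FPKM, so it was not tested with the other genes; in a fit of 28101 genes with no such minimum its log2 fold change was -0.70 ± 0.13 (SE, limma adjusted p = 0.018), a value that the added 0.5 FPKM makes smaller than the ratio of the means.

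The summed level of the FOS genes was 75.2, 73.8 and 66.9 FPKM in WT and 61.7, 60.3 and 58.1 FPKM in KO. *Fos* took 71.3% ± 3.58 of this sum in WT and 79.3% ± 2.42 in KO, and *Fosl2* 28.0% ± 3.48 and 20.5% ± 2.36 (SD, n = 3). No share overlapped between the groups (exact permutation p = 0.1, the smallest possible).

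*Atf3* and *Batf* encode partners of JUN proteins, and of these *Batf* rose and *Atf3* did not pass the test. *Atf3*, at chr1:191170296-191218039, is induced by many kinds of stress and, alone, tends to repress transcription, including that of cytokine genes in macrophages. It was 104, 108 and 112 FPKM in WT and 94.4, 94.8 and 98.7 FPKM in KO. The groups were close but did not overlap, with a log2 fold change of -0.17 ± 0.07 (SE; 95% interval -0.34 to 0.01, limma adjusted p = 0.12). It passed the threshold under 3 scalings: -0.38 with the median of all genes at 0 (limma adjusted p = 0.011), -0.28 once GC content and length were corrected for (limma adjusted p = 0.0060) and -0.25 with upper-quartile scaling (limma adjusted p = 0.038).

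*Batf*, at chr12:85686669-85709087, encodes a short leucine zipper protein that pairs with JUN proteins and works with interferon regulatory factors in lymphocytes and dendritic cells. It was 2.02, 1.95 and 2.11 FPKM in WT and 3.68, 4.02 and 4.11 FPKM in KO. The replicates lay close together and far from the other group, with a mean 1.94 times as high in KO and a log2 fold change of 0.81 ± 0.10 (SE; 95% interval 0.58 to 1.04, limma adjusted p = 0.00094). This is a low level, roughly 34 to 37 fragments per WT library and 62 to 77 per KO library. The neutrophil, B-lineage and T-lineage marker sums given above were higher in the same libraries, and their part in the level of *Batf* was not tested.

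*Egr1* had the largest rise of the 9 tested members. This zinc finger factor, at chr18:34859823-34864984, is a classical target of the serum response factor and of growth factor signals. It was 3.35, 3.79 and 2.68 FPKM in WT and 12.6, 12.5 and 10.3 FPKM in KO. Even the lowest KO library was above all WT libraries by a wide margin, and the mean was 3.61 times as high in KO (log2 fold change 1.71 ± 0.14, SE, 95% interval 1.37 to 2.05, limma adjusted p = 0.00021). Of all tested genes, 98.7% had a lower log2 fold change. The higher neutrophil marker sum in KO moved with it, and its part in the level of *Egr1* was not tested.

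*Ier3* had the largest fall of the 9 tested members. The gene, at chr17:35821684-35822923, encodes a small protein induced by NF-κB and growth factors that affects cell survival. Its level was 173, 164 and 222 FPKM in WT and 50.2, 51.3 and 56.7 FPKM in KO. The WT libraries were the more spread, with replicate 3 highest in both groups, and the gap between the groups was larger than this spread. The mean was 3.53 times as high in WT, and the log2 fold change was -1.80 ± 0.13 (SE; 95% interval -2.11 to -1.49, limma adjusted p = 0.00011). Only 1.77% of all tested genes had a lower log2 fold change.

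**Figure D3:**
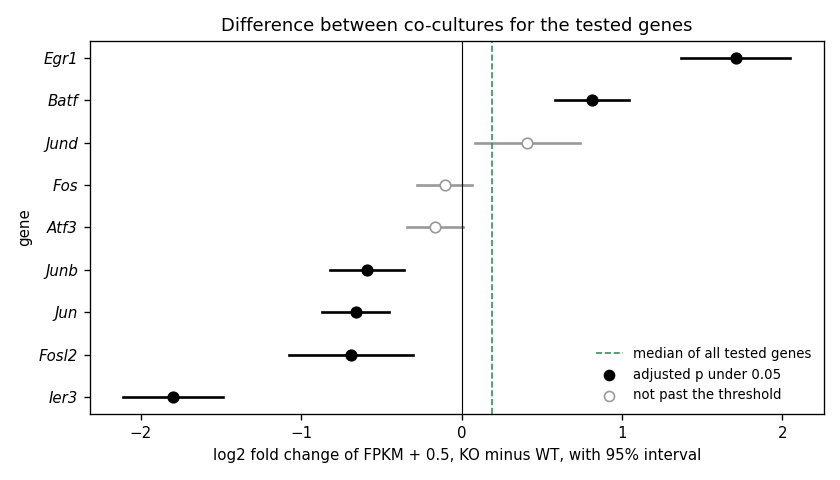
Log2 fold change of FPKM + 0.5, KO minus WT, with its 95% interval for the 9 tested members, filled where the limma adjusted p was under 0.05. The dashed line marks the median of all tested genes at 0.19, and the members run from -1.80 (*Ier3*) to 1.71 (*Egr1*).

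The table was used as deposited, and in it the median tested gene was 0.19 higher in KO on the log2 scale. With median-of-ratios scaling this median was at 0, the share of higher genes among all called genes went from 72.0% to 49.3%, and it was 55.7% with quantile normalization, 54.7% with the correction for GC content and length, and 63.6% with upper-quartile scaling. Under all of these, *Ier3*, *Jun*, *Junb* and *Fosl2* still passed the threshold as lower and *Egr1* and *Batf* as higher, and no member changed its direction.

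**Figure D4:**
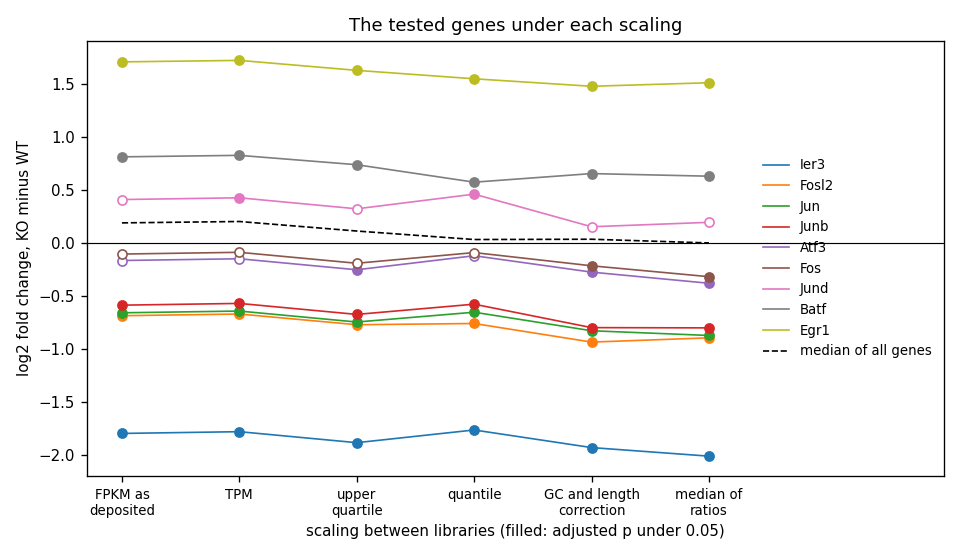
Log2 fold change of the 9 tested members under the deposited scaling and 5 others, filled where the limma adjusted p was under 0.05, with the median of all genes as a dashed line. The order of the genes stays nearly the same, while *Fos*, *Atf3* and *Jund* cross the threshold with some scalings; *Fos* goes from -0.11 to -0.32 with median-of-ratios scaling.

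Of 12 other AP-1 and dimer partner genes, all tested, 2 were lower and 3 higher in KO, that is 16.7% and 25%, beside 10.5% and 27.1% of all tested genes (median log2 fold change -0.20, against 0.19). The 2 that fell were small MAF genes, whose proteins lack an activating domain. *Maff* was 12.6, 13.4 and 13.4 FPKM in WT and 6.36, 6.16 and 5.66 FPKM in KO (log2 fold change -1.06, limma adjusted p = 0.0002). *Mafk* fell by 0.81 on the log2 scale (limma adjusted p = 0.0015). *Maf*, a large MAF factor of mature macrophages, was higher by 1.89 on the log2 scale (limma adjusted p = 1.1e-05), at 15.5, 16.8 and 14.8 FPKM in WT and 61.5, 59.1 and 58.0 FPKM in KO. *Batf3*, the close relative of *Batf* that is needed for a class of dendritic cells, was also higher. Its log2 fold change was 1.11 (limma adjusted p = 0.014). It went from at most 0.583 FPKM in WT to between 1.08 and 1.34 FPKM in KO. This call was lost with quantile normalization (0.92, limma adjusted p = 0.053). The dendritic cell markers were all too low to be tested. Of them, *Xcr1* and *Clec9a* were lower in KO without overlap (mean 0.271 in WT against 0.0757 FPKM in KO, and 0.541 against 0.0526 FPKM). *Zbtb46* was higher without overlap (mean 0.113 in WT against 0.306 FPKM in KO), and *Flt3* and *Siglech* overlapped between the groups. The relation of these markers to the level of *Batf3* was not tested. The third rise among the 12 genes, *Atf2* (log2 fold change 0.31, limma adjusted p = 0.037), was lost under 10 of 16 alternatives.

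Among 30 other immediate early genes, 29 were tested, and 10 were lower and 4 higher in KO, that is 34.5% and 13.8%, beside 10.5% and 27.1% of all tested genes (median log2 fold change -0.11). *Sgk1*, a kinase gene induced by serum and glucocorticoids, was 151, 158 and 174 FPKM in WT and 27.1, 26.6 and 29.4 FPKM in KO (log2 fold change -2.52, limma adjusted p = 4.9e-06). *Tnfaip3*, a brake on NF-κB, was lower by a log2 fold change of -1.08 (limma adjusted p = 0.0051). *Csrnp1* was also lower (log2 fold change -1.35, limma adjusted p = 0.026), with WT replicate 1 at 4.46 FPKM and the other WT libraries at 13.2 and 11.5 FPKM, and this call was lost under 6 of 17 alternatives. Of the rises, *Rgs2*, a regulator of G protein signals, had a log2 fold change of 1.20 (limma adjusted p = 0.00084), *Ier5l* 0.68 (limma adjusted p = 0.0097) and *Klf2*, a factor that restrains inflammation, 0.56 (limma adjusted p = 0.014). The call of *Klf2* was lost with median-of-ratios scaling (0.35, limma adjusted p = 0.085) and with the correction for GC content and length (0.35, limma adjusted p = 0.062).

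Of the kinases and factors that act upstream of the members, 5 were lower and 9 higher of 29 tested, that is 17.2% and 31.0%, near the 10.5% and 27.1% of all tested genes (median 0.17, against 0.19). *Map2k1*, which encodes the ERK kinase MEK1, was 91.7, 90.4 and 90.0 FPKM in WT and 47.7, 44.1 and 44.6 FPKM in KO (log2 fold change -0.99, limma adjusted p = 0.00012). *Crem*, a cAMP response factor gene with repressor forms, and *Elk3*, a partner of the serum response factor, were lower by log2 fold changes of -1.37 and -0.55 (limma adjusted p = 0.0019 and 0.0020). *Rps6ka1*, a kinase gene downstream of ERK, *Map3k5*, a stress kinase gene, and *Mef2c*, a transcription factor gene, were higher by log2 fold changes of 1.05, 1.03 and 0.99 (limma adjusted p = 0.0015, 0.0023 and 0.0097).

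Genes known as AP-1 targets were mostly lower. Of 16 genes, 15 were tested, and 10 were lower and 2 higher in KO, that is 66.7% and 13.3%, beside 10.5% and 27.1% of all tested genes. Their median log2 fold change was -1.55. *Mmp13*, the gene of a collagenase, was 60.2, 70.8 and 71.4 FPKM in WT and 5.40, 5.46 and 6.41 FPKM in KO (log2 fold change -3.44, limma adjusted p = 3.6e-06). *Mmp3*, the gene of stromelysin, was between 5.46 and 6.78 FPKM in WT and at most 0.109 FPKM in KO, where 1 library was listed at 0 (log2 fold change -3.57, limma adjusted p = 8.1e-06). *Il6*, a cytokine gene, was lower by a log2 fold change of -2.98 (limma adjusted p = 2.1e-05). *Ccnd1*, which encodes cyclin D1, and *Plau*, which encodes urokinase, went the other way, with log2 fold changes of 0.96 and 0.52 (limma adjusted p = 0.00045 and 0.0028). These genes were drawn from general knowledge with earlier results of the same libraries known, and binding of AP-1 to any of them was not measured. Of the 5 stromal and endothelial markers, *Col3a1* and *Pdgfrb* were lower in KO, at 56.4 to 63.8 against 30.7 to 30.8 FPKM and at 13.4 to 22.5 against 9.88 to 13.1 FPKM. *Col1a1*, the most abundant of them, was not (mean 306 in WT against 325 FPKM in KO, log2 fold change 0.11, limma adjusted p = 0.68). *Pecam1* did not pass the test either (log2 fold change 0.07, limma adjusted p = 0.77). *Cdh5* was too low to be tested, and its KO values lay below its WT values. The part of stromal RNA in the levels of *Mmp3*, *Mmp13* and *Il6* was not tested.

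Heat shock genes, which mark stress during handling and isolation, were tested as a list of 10. By the limma test 2 were lower and 0 higher in KO, that is 20% and 0%, beside 10.5% and 27.1% of all tested genes. At an unadjusted limma p under 0.05, 4 were lower and 0 higher, and the share of all tested genes there was not taken. *Hsph1* and *Hspa1b*, both chaperone genes, had log2 fold changes of -0.49 and -0.48 (limma adjusted p = 0.0045 and 0.0089). The median of the list was -0.16, against 0.19 for all tested genes.

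**Figure D5:**
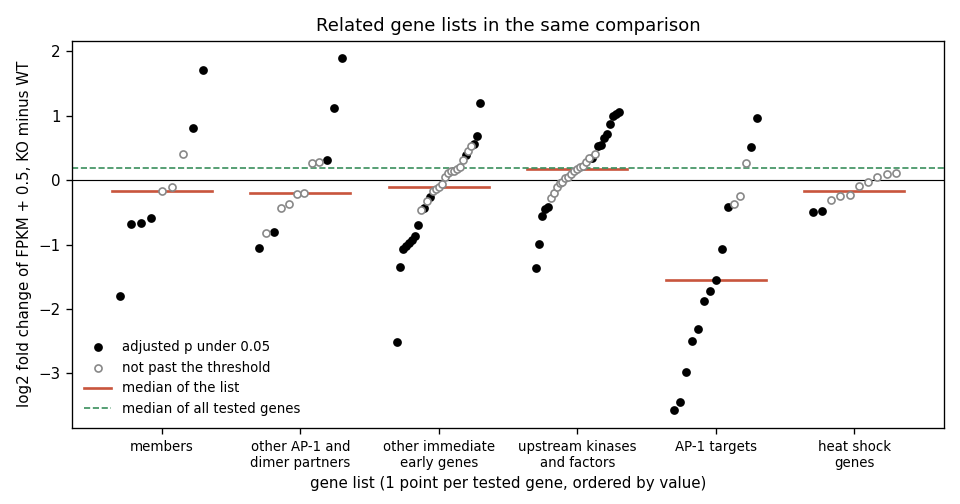
Log2 fold change of FPKM + 0.5, KO minus WT, for each tested gene of the members and of 5 related lists, ordered by value within a list and filled where the limma adjusted p was under 0.05. The median lies at -0.17 for the members, at -1.55 for the AP-1 targets and at 0.17 for the upstream kinases and factors, against 0.19 for all tested genes (dashed line).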

How the data were processed

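The authors deposited FPKM per gene in 1 table, whose 6 columns of values all matched a sample title (0 columns unmatched). The table holds no counts and no comparisons. Per the labels' processing notes, fastp 0.17.1, HISAT2 2.1.0, DESeq2 1.18.1 and R 3.4.3 were used. The quantifier, annotation and genome build are not given in the sources used here. The labels and the paper's methods name different RNA kits, library kits and sequencers. Of 55335 Ensembl identifiers, 55154 (99.7%) matched GENCODE M21. Whole fragments could not be recovered: only 36.8% to 40.7% of low values came out whole (tolerance 0.1) when divided by the smallest step of their library, and that step gave the implied depths.

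The 13367 genes averaging at least 0.5 FPKM were tested as log2(FPKM + 0.5), which understates changes of low genes, with limma 3.58.1 in R 4.3.3 (eBayes with trend, two-sided, Benjamini-Hochberg over all tested genes, threshold 0.05), 3 libraries against 3, without covariates. The fit was tested on simulated data. Shares were compared by exact permutation (scipy). The members and lists were chosen with earlier results of these data known. Named genes are the members, the markers, *Cd177*, and up to 3 rises and 3 falls of each list with an adjusted p under 0.05. Alternatives were other pseudocounts, filters and scalings, a correction for GC content and length, a robust variance, thresholds, a replicate block, and leaving out each library. One alternative applied the threshold of the study, a change of more than 2-fold with p under 0.05 before adjustment, to the same fit.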

Additional observations from a re-analysis of the deposited data

How the results depend on the processing

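None of the 9 tested members, of the 24 genes named from the other lists by rule and of the 5 shares turned its direction under the alternatives run for it; the medians of the lists and the markers were taken at the deposited scaling only. Under the study's threshold the counts were 1 lower and 1 higher for the members and 1 lower and 2 higher for the dimer partners. They were 4 lower and 1 higher for the other immediate early genes and 1 lower and 2 higher for the upstream genes. The AP-1 targets had 9 lower and 0 higher, and the heat shock genes 0 lower and 0 higher. The share of all tested genes past this threshold was not taken. Among the 6835 genes averaging 5 FPKM or more, 983 were lower and 1756 higher, and 1 member (*Egr1*) and 3 upstream genes were higher. *Batf*, *Map3k5* and *Mef2c* fell under this minimum and were not in that fit. Median-of-ratios scaling gave 4 lower dimer partners, 2 higher immediate early genes and 4 lower heat shock genes. Quantile normalization gave 1 higher dimer partner and 4 lower and 1 higher heat shock genes. The correction for GC content and length gave 4 lower dimer partners and 4 lower heat shock genes. An adjusted p under 0.01 gave 1 higher dimer partner. Of all 13367 tested genes, 2215 were lower and 2156 higher with median-of-ratios scaling. With quantile normalization 1928 were lower and 2426 higher, and with the correction for GC content and length 2492 and 3005. When each library was left out in turn, the counts lower and higher ranged over 3 to 4 and 2 to 3 for the members. They were 2 to 5 and 2 to 3 for the dimer partners, and 8 to 10 and 4 to 7 for the other immediate early genes. For the upstream genes they were 4 to 5 and 6 to 8, for the AP-1 targets 9 to 10 and 2 to 2, and for the heat shock genes 2 to 3 and 0 to 2. Of all 13367 tested genes, 1047 to 1717 were lower and 2442 to 4228 higher in these fits. Without WT replicate 3, both of these numbers were at their highest (1717 and 4228). The highest list counts also held there for lower dimer partners (5), higher immediate early genes (7) and higher heat shock genes (2). The share of *Fos* differed by 6.39 to 9.93 percentage points, that of *Fosl2* by -9.35 to -5.91, of *Jun* by -9.89 to -6.94, of *Junb* by -9.47 to -9.22 and of *Jund* by 16.2 to 19.4 when a library was left out. The same-numbered libraries deviated together with correlations of 0.12, 0.04 and 0.26, so the numbers were not taken to pair the libraries, and not every library correlated best with its own number. With the replicate block, 5934 instead of 5027 genes were called, 1681 lower and 4253 higher instead of 1408 and 3619. The members gave 4 lower and 3 higher, the added one being *Jund* (limma adjusted p = 0.0065). The causes of these shifts were not tested. The added 0.5 FPKM limits the log2 fold changes of low genes: with 0.1 FPKM that of *Mmp3* was -5.31, of *Il6* -4.38 and of *Batf3* 1.85. Depth limits *Fosb*, *Batf* and *Batf3*.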
